A study of Macaca mulatta with 12 samples.

Results

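Progesterone was compared with no progesterone across both estrogen states in the dorsal raphe nucleus of ovariectomized female rhesus macaques (Macaca mulatta). All 12 arrays of the series entered, 1 array per monkey. The 6 arrays with progesterone came from 3 monkeys given progesterone alone and 3 given estrogen plus progesterone. The 6 without it came from 3 monkeys given placebo and 3 given estrogen alone. The ovaries had been removed in every group, the placebo group included, and steroids or placebo were delivered for 1 month from Silastic capsules placed beneath the skin of the upper back. Ages and capsule doses are not given in the labels. The titles of the progesterone arrays name progesterone alone but carry the codes of the combined group, so their group was taken from their source names. A comparison was made by keeping estrogen as a factor, so that each monkey was set against others in the same estrogen state.

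Progesterone acts through its nuclear receptor PGR, a ligand-activated transcription factor, and through membrane-associated proteins such as PGRMC1 and PGRMC2. Its metabolite allopregnanolone is a positive modulator of GABA-A receptors. Estrogen raises progesterone receptor levels in many target tissues, and serotonin neurons of the macaque raphe are among the cells in which progesterone receptors have been described. The dorsal raphe holds most of the serotonin neurons that project to the forebrain.

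Values were intensities per probe set, a group of short probes for 1 transcript, on a human Affymetrix array read with macaque RNA. The strength of a signal therefore varies with how well macaque transcripts match human probes, and levels are not compared between probe sets. Differences are log2 differences on the scale of log2(intensity + 8.26) after quantile normalization, given with the standard error (SE) of the fit, and they understate the change of dim probe sets. Intensities are given as deposited, in the order of replicates 1 to 3 of each group. The tissue is a mixture of cells, so fewer cells of a type and less RNA per cell cannot be told apart.

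The serotonin transporter SLC6A4 read 361 to 476 in the 6 arrays without progesterone and 220 to 495 in the 6 with it. FEV, a transcription factor of serotonin neurons, read 111 to 221 without and 104 to 289 with progesterone. The probe set of TPH1, a tryptophan hydroxylase, lay under 8.26 on all 12 arrays, which is the value of the 10th percentile of all intensities. Array medians ran from 74.5 to 87.1. Estrogen 1 and estrogen plus progesterone 1 stood apart, with 28S ribosomal RNA control signals of 841 and 1354 against 64.2 to 179 on the other 10 arrays. There was 1 such array on each side of the comparison. Across 6 array measures (median intensity, 28S and 18S controls, the 3'/5' ratios of the GAPDH and actin controls, and an Alu repeat control) no difference with progesterone passed an exact permutation test within estrogen states (2-sided, 400 arrangements, smallest possible p 0.005). The lowest exact p was 0.165, for the Alu control, which had a mean of 24747 with and 21350 without progesterone (adjusted p = 0.84). Its part in the main effect was not tested.

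No probe set passed the adjusted threshold for the progesterone main effect. The differences with the smallest p were a higher DMAC2L, a mitochondrial factor associated with ATP synthase, by 1.23 ± 0.22 (SE), and a lower PDYN, which encodes prodynorphin, the source of opioid peptides acting at the kappa receptor, by -1.22 ± 0.24. HOXB3, a homeobox transcription factor, read lower by -0.88 ± 0.17. These 3 had an adjusted p of 0.503 (limma, Benjamini-Hochberg over 7535 probe sets), the smallest of the comparison. In all, 419 probe sets (5.56% of those tested) had an unadjusted p under 0.05, with 213 (2.83%) higher and 206 (2.73%) lower. The count under 0.01 was 73, or 0.969%. Of all tested, 49.9% were higher and 50.1% lower. The median size of a difference was 0.127, and the median SE of 0.169 gave a 95% interval of 0.365 on either side. A difference smaller than that could not be told from 0 for a typical probe set. Only 306 probe sets (4.06%) differed by more than 0.5 and 16 (0.212%) by more than 1.

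The 12 higher and 12 lower genes with the smallest unadjusted p, of the same sign in both estrogen states, are described next as the leading genes. None passed the threshold. Adjusted p was 0.503 for DMAC2L, PDYN and HOXB3, 0.849 for CTNNA2 and 0.864 for the other 20. Since these genes were picked from this contrast, their values are a description.

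Among genes of neuronal signalling, PDYN read 124, 94.3 and 55.8 with placebo and 63.3, 35.0 and 27.3 with progesterone. It read 55.0, 79.6 and 92.4 with estrogen and 20.8, 24.4 and 23.5 with both hormones. The 3 arrays with both hormones were the lowest of the 12, and progesterone 1 was the only array with progesterone inside the range of those without. The log2 difference was -1.03 without and -1.41 with estrogen. PDYN was dim, and it was left out by the filter on low values when any of 6 arrays (placebo 1, 2 or 3, estrogen 2 or 3, progesterone 1) was dropped. ICA1, a protein of the Golgi and secretory vesicles, read 45.9 to 134 (median 69.8) without and 23 to 60.7 (median 29.9) with progesterone, and its second tested probe set differed in the other direction, by 0.28. RAPGEF2, an exchange factor that activates the small GTPase Rap, read 1128 to 1359 without and 569 to 1108 with progesterone, with no overlap of the deposited values. Its difference was -0.81 without and -0.31 with estrogen, and a further probe set differed by -0.17.

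Genes of cell adhesion and the cytoskeleton lay on both sides. CTNNA2, the neuronal alpha-catenin that ties cadherins to actin, read 760, 727 and 675 with placebo and 494, 366 and 452 with progesterone. It read 669, 624 and 766 with estrogen and 550, 530 and 419 with both. Every array with progesterone was lower than every array without it, and the difference was -0.57 ± 0.12, with a 95% interval of -0.84 to -0.31. A second CTNNA2 probe set read 184 to 315 (median 246) without and 118 to 218 (median 165) with progesterone, and differed by -0.51 (unadjusted p = 0.0173). LIMK2, a kinase that phosphorylates the actin-severing protein cofilin, read 184, 189 and 161 with placebo, 152, 97.9 and 122 with progesterone, 191, 157 and 168 with estrogen, and 121, 141 and 101 with both. Its groups also did not overlap, and the difference was nearly equal in the absence (-0.50) and presence (-0.52) of estrogen. MAP4, a microtubule-associated protein, read 138 to 236 without and 244 to 288 with progesterone, again with no overlap. Its 3 other tested probe sets differed by 0.05, -0.20 and -0.01. LSAMP and OPCML, both neuronal adhesion proteins of the IgLON family, went opposite ways. LSAMP read 72.8 to 106 without and 96.5 to 263 with progesterone, and its difference was 1.11 in the absence and 0.20 in the presence of estrogen. OPCML read 467 to 605 without and 253 to 464 with progesterone. Among matrix and secreted proteins, the collagen chain COL11A2 read 207 to 478 without and 358 to 654 with progesterone. SRPX, a secreted sushi-repeat protein, read 236 to 462 without and 156 to 269 with it.

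Immune and growth-related genes included IL10, the anti-inflammatory interleukin. It read 70.2, 55.4 and 67.9 with placebo, 83.8, 97.3 and 123 with progesterone, 62.7, 53.7 and 64.0 with estrogen, and 82.8, 103 and 107 with both hormones. The groups did not overlap, and the difference was 0.57 without and 0.60 with estrogen. IRF9, the DNA-binding partner of STAT proteins in interferon signalling, read 36.7 to 90.6 (median 43.5) without and 46.5 to 189 (median 144) with progesterone. Its 3 arrays with progesterone alone lay between 152 and 189, while among those with both hormones only replicate 3 (135) lay above 90.6. AGGF1, an angiogenic factor, read 155, 149 and 149 with progesterone against 72.9, 72.0 and 64.1 with placebo. With both hormones it read 72.6 to 84.8 against 54.3 to 80.3 with estrogen alone, so most of its difference came from the state without estrogen (1.02 against 0.23). IGFALS, a serum binding protein of insulin-like growth factors, read 108 to 259 without and 58.0 to 147 with progesterone. The tyrosine kinase PTK6 read 27.5 to 56.5 without and 58.1 to 89.5 with progesterone, and the deposited values did not overlap. PRKX, a cAMP-dependent protein kinase, read 60.5 to 88.8 without and 82.9 to 128 with it.

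Genes of the mitochondrion, RNA and chromatin made up most of the rest. DMAC2L read 16.7, 16.8 and 22.6 with placebo and 101, 73.1 and 66.7 with progesterone. It read 102, 64.0 and 39.6 with estrogen and 143, 89.6 and 129 with both hormones. All 3 placebo arrays were lower than every other array, and estrogen 1 read above 4 of the 6 arrays with progesterone. The difference was 1.68 without and 0.78 with estrogen, and 2 further probe sets of the gene differed by 0.04 and 0.09. PLRG1, a spliceosome component, read 38.8 to 60.2 without and 68.4 to 159 with progesterone, with no overlap. ZBTB48, a zinc finger protein that binds telomeric DNA, read 18.6 to 51.6 without and 59.7 to 106 with progesterone, also without overlap, and its difference was 1.01 in the absence and 0.98 in the presence of estrogen. The ribosomal protein gene RPS16 read 1567 to 2262 without and 2078 to 4338 with progesterone. HOXB3, which patterns the hindbrain in development, read 61.5, 52.1 and 92.9 with placebo, 35.2, 53.7 and 31.9 with progesterone, 109, 89.4 and 71.5 with estrogen, and 41.3, 49.2 and 29.3 with both. Progesterone 2 was the only array with progesterone to reach the range of those without. MGST3, a microsomal glutathione transferase, read 1193 to 2117 without and 838 to 1234 with progesterone. DNAJC16, a J-domain protein, read 308 to 395 without and 203 to 349 with it, and LOC391322 read 67.2 to 180 without and 37.4 to 101 with it.

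**Figure D1:**
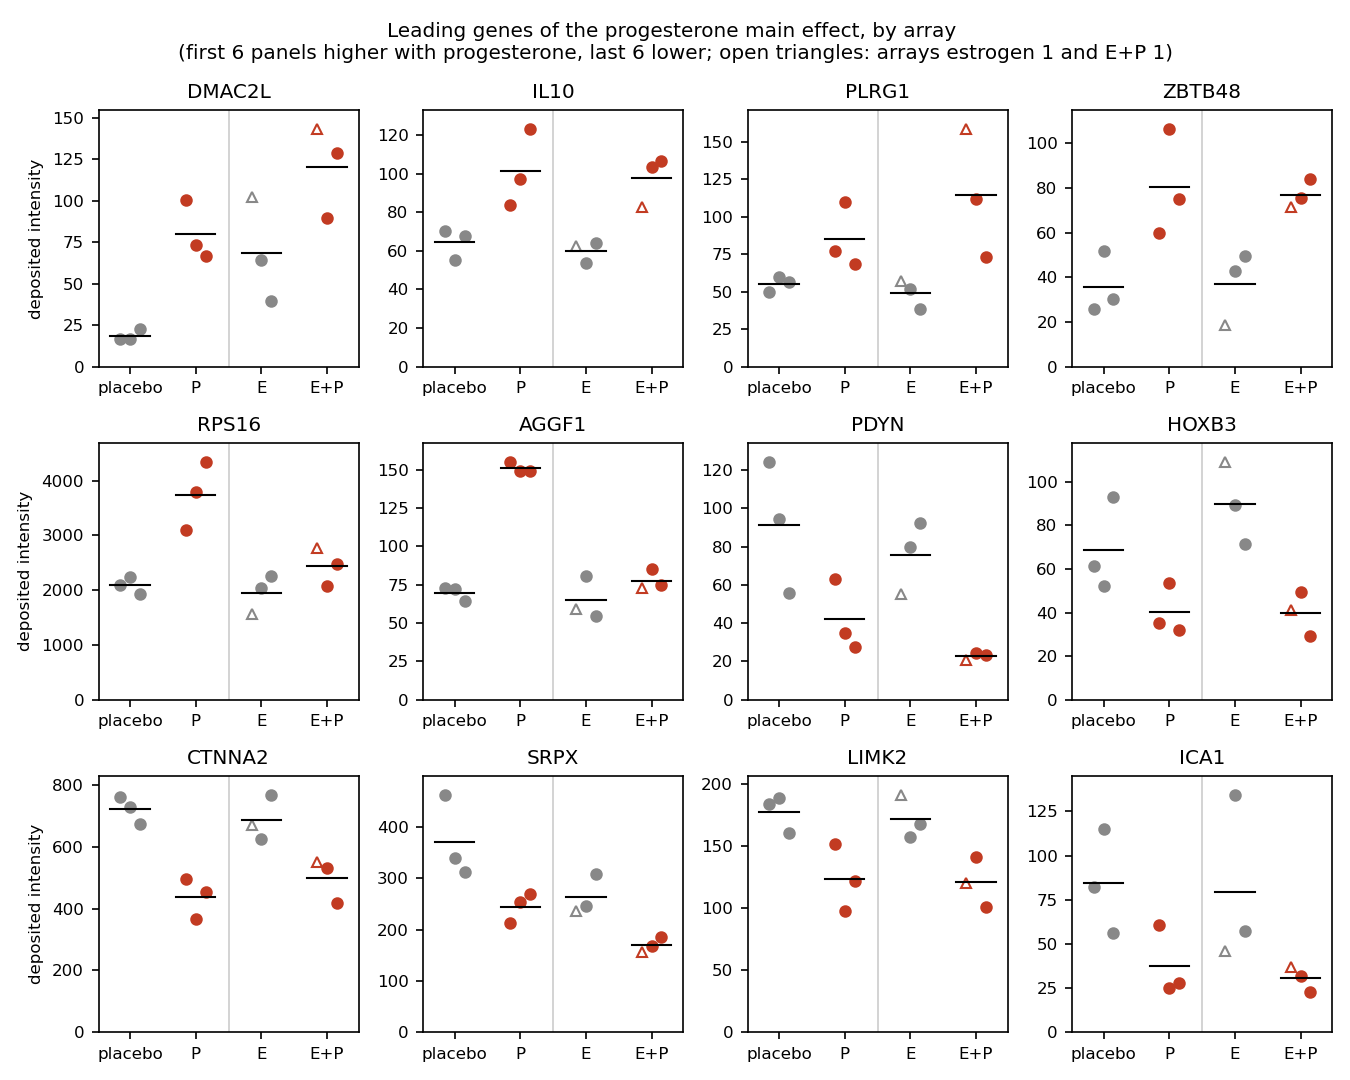
Deposited intensity (vertical axis, linear, from 0) of 12 leading genes on each of the 12 arrays, by group (P, progesterone; E, estrogen; E+P, both), with arrays without progesterone in grey, arrays with it in red, group means as lines and open triangles for estrogen 1 and estrogen plus progesterone 1. CTNNA2 lies at 624 to 766 without and 366 to 550 with progesterone, while AGGF1 stands apart mainly in the P group at 149 to 155.

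The normalized values of 16 probe sets (0.212% of 7535) separated all 6 arrays with progesterone from all 6 without it, 10 higher (0.133%) and 6 lower (0.0796%), and 11 of the 16 also did so on the deposited values, where 17 (0.226%) separated in all. For 6 arrays against 6, chance alone would separate about as large a share of probe sets. Separation alone therefore does not mark a difference made by progesterone, for these probe sets or for the leading genes above. Of the 16, 15 carried 1 gene symbol. Besides CTNNA2, LIMK2, IL10, PLRG1, ZBTB48, PRKX and MAP4, they included NEFM, the medium neurofilament subunit, at 323 to 359 without and 373 to 583 with progesterone. A brighter NEFM probe set did not reach an unadjusted p under 0.05. BAD, which promotes apoptosis by binding BCL2 family proteins, read 92.8 to 116 without and 117 to 156 with it. PMS1, a mismatch repair protein, read 116 to 146 without and 97.4 to 108 with it. CDYL, a chromodomain protein, read 294 to 336 without and 250 to 280 with it, a small but non-overlapping gap. The RNA-binding protein gene ZFR read 38.6 to 74.1 without and 69.4 to 108 with progesterone, and RAD21, a cohesin subunit, read 1322 to 1886 without and 953 to 1328 with it. Their deposited values overlapped slightly, as did those of AHCYL2 and PLEKHB1.

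Genes read by several probe sets gave a further view. Of 934 genes with at least 2 tested probe sets, 135 had one at an unadjusted p under 0.05. In 9 of them at least 2 probe sets passed that level in 1 direction, 6 higher (BRD2, CDS1, IGFBP2, MAP1B, NKTR and PCDH9) and 3 lower (CTNNA2, PRKDC and RAB4A), and 1 gene had probe sets passing in opposite directions. Another PRKDC probe set differed by -0.01, and 2 others of RAB4A by 0.01 and -0.44. Probe sets of a gene can share probes, so they are not independent. IGFBP2, a binding protein of insulin-like growth factors, differed by 0.41 and 0.46 on its 2 probe sets. Without estrogen 1, which read 55.3 on the latter, and estrogen plus progesterone 1, these were 0.37 and 0.25 (unadjusted p = 0.062 and 0.115). IGFBP2 thus kept neither probe set under 0.05 on those 10 arrays. MAP1B and PCDH9 kept only 1 each, while the other 6 genes kept at least 2. MAP1B, a microtubule-associated protein of growing axons, differed by 0.85 and 0.70 on 2 probe sets and by -0.15 on another. Its second probe set read 73.5 to 199 without and 89.7 to 336 with progesterone. PCDH9, a protocadherin, differed by 0.53, 0.72 and 0.71, and the first 2 of these had an unadjusted p under 0.05. BRD2, a bromodomain protein, differed by 0.84 and 0.52 on 2 probe sets and by -0.23 on another. Several of these averages came mostly from the state without estrogen. In the absence and presence of estrogen, 2 NKTR probe sets differed by 1.30 and 0.08, and by 1.39 and 0.09. The CDS1 pairs were 0.77 and 0.09, and 0.56 and 0.06, and those of BRD2 1.38 and 0.30, and 0.88 and 0.16. The larger difference was with estrogen for MAP1B (0.72 and 0.97, and 0.28 and 1.12). Among the 24 leading genes, 6 had other tested probe sets. Of those 10 probe sets, 7 had the leading sign, and CTNNA2 gave the only one of these with an unadjusted p under 0.05.

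The differences made by progesterone in the 2 estrogen states were close to uncorrelated across probe sets, and the genes called in one state read close to 0 in the other. Without estrogen, 3 genes passed the adjusted threshold of 7535 probe sets tested (0.0398%). UBXN7, an adaptor of the segregase VCP, rose from 21.4, 35.8 and 47.1 with placebo to 105, 115 and 138 with progesterone, a difference of 1.61 ± 0.21 (adjusted p = 0.031). PRRC2C, a proline-rich RNA-associated protein, rose from 53.4, 104 and 102 to 227, 261 and 241, by 1.46 ± 0.21 (adjusted p = 0.045). LPCAT4, a lysophospholipid acyltransferase, fell from 157, 103 and 104 to 15.9, 21.7 and 19.7, a difference of -2.24 ± 0.28 (adjusted p = 0.031). With estrogen present the same 3 genes differed by -0.10, 0.00 and 0.16. LPCAT4 then read 91.4, 131 and 121 with estrogen and 84.1, 154 and 164 with both hormones, and UBXN7 read 50.1, 38.0 and 38.0 against 49.0, 33.9 and 36.3. A second PRRC2C probe set differed by -0.01 for the main effect. The tests of the difference between states gave adjusted p values of 0.44 for UBXN7 and LPCAT4 and 0.58 for PRRC2C, so the 2 states were not shown to differ for them. With array weights in the fit, LPCAT4 passed that test along with KIFC1, a kinesin. The 3 calls depended on which arrays were used. There were 0 calls without placebo 1, placebo 2, estrogen 3, estrogen plus progesterone 2 or any 1 of the 3 progesterone arrays, 1 (LPCAT4) without estrogen plus progesterone 1 or 3, 2 (LPCAT4 and HSPA2) without estrogen 2, 3 (LPCAT4, UBXN7 and SLC12A4) without placebo 3, 6 without estrogen 1, and 11 when both arrays of high ribosomal signal were dropped. With replicate number as a block there were 0. Controls also separated these 2 groups. The Alu control read 18730 to 21889 with placebo and 24726 to 25033 with progesterone, and the 18S control read 49.0 to 92.1 and 95.8 to 116. Their part in the 3 calls was not tested.

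With estrogen present, 0 probe sets passed. The count under an unadjusted p of 0.05 was 216 (2.87%) there, against 621 (8.24%) without estrogen. Without estrogen 2 there were 2 calls. The leading genes there were PLRG1, which read 57.4, 51.5 and 38.8 with estrogen and 159, 112 and 73.0 with both, and HOXB3 and PDYN on the lower side, by -1.07 and -1.41. GNB2, a G-protein beta subunit, differed by 2.05 ± 0.53 with estrogen and by -0.37 without it. A second GNB2 probe set differed by -0.04 with and -0.11 without estrogen. The estrogen arrays of the first were scattered (182, 1241 and 352) against 1884, 1522 and 1882 with both hormones. ADSL, an enzyme of purine synthesis, read 174, 133 and 158 with estrogen and 82.4, 89.9 and 100.2 with both, and differed by 0.01 without estrogen. The test of a difference between states gave 0 calls and 376 (4.99%) under an unadjusted p of 0.05, and 1 call without placebo 3. Its largest value was for a probe set of HSPA2, a heat shock protein of the HSP70 family. It read 164, 202 and 97.5 with placebo and 3.72, 2.62 and 3.76 with progesterone, but 105, 4.66 and 134 with estrogen and 112, 373 and 166 with both. Of the 12 arrays 4 lay under 8.26. A second HSPA2 probe set had the same pair of signs with differences of -0.93 and 0.50.

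Over all tested probe sets the differences in the 2 states, which share no arrays, correlated with Pearson's r of -0.0097 and Spearman's rho of 0.023. This is a description across probe sets normalized and filtered together, and probe sets are not independent replicates. The sign was the same for 3888, or 51.6%. The 621 with an unadjusted p under 0.05 in the state without estrogen had a median size of 0.655 there and a median of 0.033 in the same direction with estrogen, where 56.0% kept their sign. The 216 of the other state had a median size of 0.688 there and -0.006 without estrogen, with 49.5% keeping their sign. Within the states, 1255 probe sets (16.7%) separated progesterone from placebo 3 against 3 and 508 (6.74%) separated both hormones from estrogen alone. In both states 49 (0.65%) separated the same way and 29 (0.385%) in opposite ways. Some of each separate by chance, and the expected numbers were not computed. Without estrogen 1 and estrogen plus progesterone 1, r was 0.043 and 53.7% of signs matched.

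**Figure D2:**
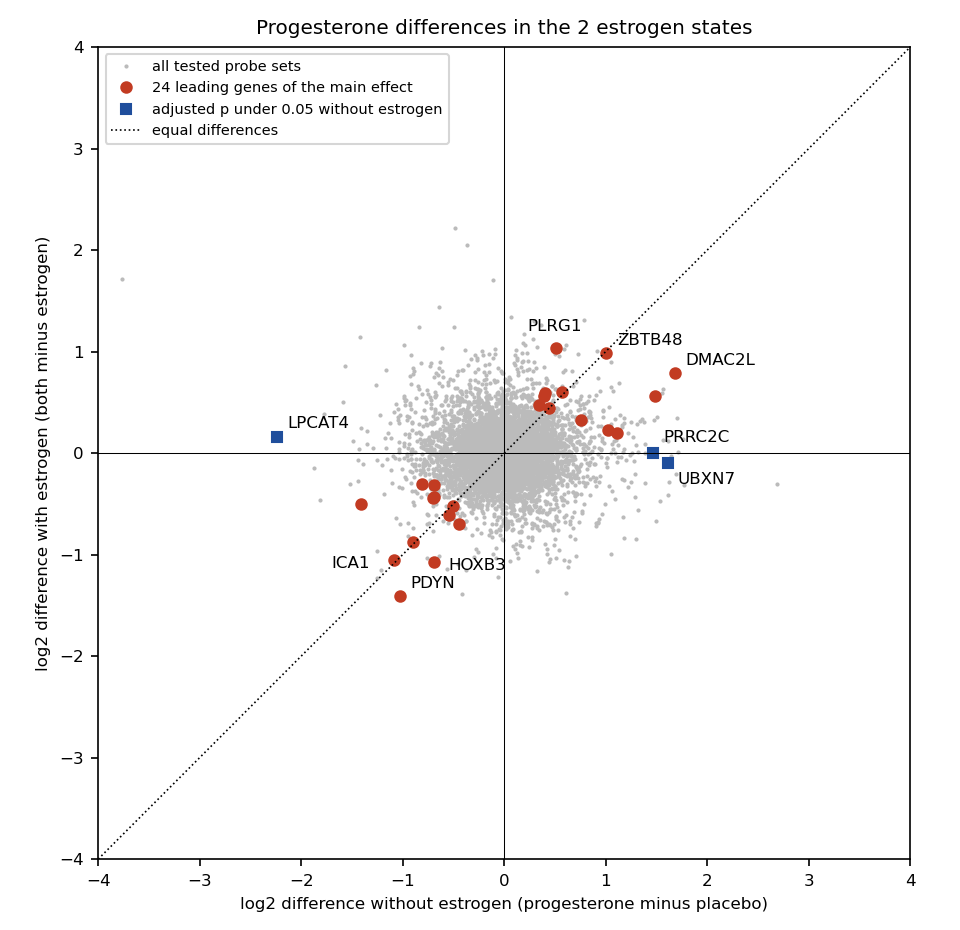
Log2 difference with progesterone in the absence of estrogen (horizontal axis) against that in its presence (vertical axis) for each tested probe set, with the 24 leading genes in red, the 3 genes past the adjusted threshold without estrogen as blue squares and equality as a dotted line. The cloud shows no diagonal (r of -0.0097), the leading genes lie in the quadrants of equal sign because they were chosen so, and LPCAT4, PRRC2C and UBXN7 lie near 0 on the vertical axis.

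Leaving out estrogen 1 and estrogen plus progesterone 1 gave 5 arrays with and 5 without progesterone. Again 0 probe sets passed, with a smallest adjusted p of 0.184, and the count at an unadjusted p under 0.05 was 742 (9.85%), with 347 (4.61%) higher and 395 (5.24%) lower. For 5 arrays against 5, 126 probe sets (1.67%) did not overlap. Dropping estrogen 1 alone gave 738, against 447 without estrogen plus progesterone 1. The unequal groups give the state without estrogen more weight in this fit. The differences on 10 and 12 arrays had a Pearson's r of 0.908 over 7444 probe sets, which is not independent agreement since 10 arrays are in both. Of the earlier 419, 323 (77.1%) were among the 742, and these made up 43.5% of the latter. All 24 leading genes had an unadjusted p under 0.05 on the 10 arrays. Of the 24 genes that led the 10-array fit by the same rule, 7 were shared, namely DMAC2L (1.39), IL10 (0.63), ZBTB48 (0.85), IRF9 (1.24), AGGF1 (0.69), PDYN (-1.25) and CTNNA2 (-0.63). Others were NUCB1, a calcium-binding Golgi protein, at -1.34 against -1.11 on 12 arrays, and PTPN4, a tyrosine phosphatase, at 1.36 against 1.07. DDX51, an RNA helicase, moved from 0.76 to 1.03. It read 45.7 to 57.2 on the 5 remaining arrays without progesterone and 218 on estrogen 1. OGT, the O-GlcNAc transferase, differed by -0.84 against -0.68 on 12 arrays, and ARF6, a small GTPase of endosomal traffic, by -0.91 against -0.61. OGT read 195 on estrogen 1 and 294 to 458 on the 5 remaining arrays without progesterone. ARF6 read 614 on estrogen plus progesterone 1 and 158 to 257 on the 5 remaining arrays with progesterone.

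Steroid hormone genes showed no change past the threshold. The PGR probe set lay under 8.26 on 11 of the 12 arrays and was not tested. Of 15 steroid receptors listed, 8 were tested, with 2 higher and 6 lower and a median of -0.15, against a median of -0.00020 over all tested probe sets. In counting lists, each gene entered with its brightest probe set, and of 5499 such genes 48.6% were higher, 51.4% were lower and 5.11% had an unadjusted p under 0.05 (2.22% higher, 2.89% lower). GPER1, a membrane estrogen receptor, read 76.6 to 125 without and 39.0 to 105 with progesterone, a difference of -0.45 ± 0.17 (unadjusted p = 0.018). NR3C1, the glucocorticoid receptor, read 497 to 629 without and 473 to 559 with it, and differed by -0.22 on this probe set and by -0.13 and -0.10 on 2 others. ESR1 and ESR2, the estrogen receptors, differed by 0.27 and 0.06, with intervals of -0.36 to 0.90 and -0.21 to 0.33. Of 15 cofactors and chaperones tested, 8 were higher and 7 lower. NRIP1, a corepressor of nuclear receptors, differed by -0.34 and the acetyltransferase CREBBP by -0.43, both at an unadjusted p under 0.05. FKBP4, a co-chaperone of the progesterone receptor, read 1049 to 1502 without and 1228 to 1838 with progesterone (difference 0.25, interval -0.05 to 0.54). Of 28 tested genes known to respond to progesterone or glucocorticoids in other tissues, 19 were higher and 9 lower, with a median of 0.04, and 0 reached an unadjusted p under 0.05.

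No neurotransmitter list held a gene past the threshold. In the serotonin list 23 of 32 genes were tested, 9 higher and 14 lower, with a median of -0.10 and 0 at an unadjusted p under 0.05. Over all 28 tested probe sets of the list the median was -0.17 with 2 at that level. Without estrogen 1 and estrogen plus progesterone 1 the median was -0.02, and GCH1 (-0.41), GATA3 (-0.39) and HTR2C (-0.37) reached that level. SLC6A4 differed by -0.29 (95% interval -0.71 to 0.12), FEV by -0.20 (-0.73 to 0.34) and SLC18A2, the vesicular monoamine transporter, by -0.28 (-0.71 to 0.14). HTR2C, a serotonin receptor, read 275 to 396 without and 204 to 371 with progesterone, and differed by -0.62 in the absence and 0.02 in the presence of estrogen. MAOA, which degrades serotonin, differed by -0.10 on its brighter probe set and by -0.45 on a dimmer one. The -0.10 averaged opposite differences, 0.49 in the absence and -0.70 in the presence of estrogen. The catecholamine list had 2 genes higher and 10 lower of 12 tested (median -0.11), and it shares SLC18A2 and DDC with the serotonin list. Genes of GABA synthesis and uptake had 1 higher and 7 lower of 8 (median -0.18), with GAD1 at -0.18 and GAD2 at -0.07. Among the GABA-A receptor subunits 6 of 7 were higher (median 0.07, and 0.28 on the 10 arrays). GABRB2 differed by 0.45 ± 0.23, and by 0.70 on the 10 arrays, with 1.0 in the absence and -0.10 in the presence of estrogen. Of 16 glutamate receptors and transporters, 8 were higher and 8 lower. GRM5, a metabotropic receptor, read 281 to 439 without and 240 to 327 with progesterone, and differed by -0.39 (unadjusted p = 0.014), while a dimmer probe set differed by 0.02. Of 23 neuropeptide genes and receptors, 9 were higher and 14 lower, and PDYN was the only one at an unadjusted p under 0.05. Among 25 potassium channels KCNJ6, a G-protein-gated channel, differed by -0.44 (unadjusted p = 0.026). The 33 synaptic vesicle genes had 13 higher and 20 lower, with a median of -0.08.

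Other lists had medians close to 0. Ribosomal proteins had 28 higher and 18 lower of 46 (median 0.03), and RPS16 was the only member at an unadjusted p under 0.05. Oxidative phosphorylation had 23 higher and 25 lower of 48, with 0 at that level. The 61 splicing factors had 25 higher and 36 lower, with 4 higher and 1 lower at an unadjusted p under 0.05 (8.20% of the list against 5.11% of all genes). They were PLRG1, SNRPD3 (0.47), NKTR (0.69), TRA2A (0.33) and, lower, the RNA helicase DDX17. The NKTR difference was 1.30 in the absence and 0.08 in the presence of estrogen. DDX17 read 2171, 1957 and 2116 with placebo and 1223, 1098 and 1042 with progesterone, but 2136, 2318 and 2383 with estrogen and 2232, 1824 and 2254 with both. A second DDX17 probe set differed by -0.03 for the main effect. Of 27 apoptosis regulators, 17 were higher, with BAD at 0.34 and the initiator caspase CASP9 at 0.53 on 1 probe set and 0.08 on another. Of 42 growth factors and neurotrophin receptors, NTRK2, the receptor of brain-derived neurotrophic factor, differed by -0.34 and TGFB3 by -0.37, with a second tested TGFB3 probe set at -0.08. The 3 other tested NTRK2 probe sets were split, at 0.20, 0.38 and -0.41. Of 23 heat shock genes 13 were higher, and the chaperonin subunits CCT4 and CCT8 differed by 0.43 and -0.45. Immediate early genes had 11 higher of 18, and NR4A1, an orphan nuclear receptor, differed by -0.37 on 1 probe set and by -0.08 on another. Antioxidant enzymes had 15 higher of 29, with MGST3 and MGST2 (-0.46) lower. In the interferon and antigen presentation list 12 of 26 were higher, with IRF9 at 1.03 and B2M, the light chain of class I molecules, at 0.46 on 1 probe set and 0.25 and 0.23 on 2 others. Cholesterol synthesis (8 of 16 higher), the proteasome (17 of 30) and neurosteroid enzymes (8 of 13) had medians of 0.01, 0.01 and 0.07. SRD5A1, the reductase on the way to allopregnanolone, differed by 0.21 (interval -0.17 to 0.59).

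Markers of cell types overlapped between arrays with and without progesterone. The summed intensity of 15 tested neuron markers was 35139 to 46002 without and 37320 to 44754 with progesterone, and that of 17 astrocyte markers was 19751 to 23912 and 19986 to 23284. The 13 oligodendrocyte markers summed to 18218 to 26398 without and 21176 to 32783 with progesterone. The 11 microglial and macrophage markers summed to 2118 to 2719 and 1850 to 2987. The 11 endothelial and mural markers gave 1822 to 2518 and 2025 to 2459. Of blood markers 2 were tested, at 341 to 605 and 334 to 502. The 9 meningeal markers gave 3980 to 6957 and 4536 to 6063, and the 4 ependymal ones 1250 to 1574 and 1157 to 1699. Cerebellar markers had 2 higher and 10 lower of 12 (sums 5573 to 7258 and 5062 to 6440). Midbrain dopamine markers had 1 higher and 7 lower of 8, the lowest median of the 33 lists at -0.21 (-0.35 on the 10 arrays), with sums of 2107 to 3512 without and 1878 to 2409 with progesterone. The defining marker SLC6A3, the dopamine transporter, was too dim to be tested, and TH, the enzyme of dopamine synthesis, differed by -0.22. The list shares SLC18A2 and DDC with the serotonin and catecholamine lists, EN1 with the cerebellar list and KCNJ6 with the potassium channels. The counts of these lists are therefore not independent. The part of dopamine neurons in the values of the serotonin list was not tested. Single markers at an unadjusted p under 0.05 were MAP2 (0.58, with 0.29 and 0.38 on its other tested probe sets) among neurons, SOX9 and SLC4A4 (both -0.48) among astrocytes, UGT8 (-0.53), an enzyme of myelin lipid synthesis, and CD68 (0.39), a lysosomal protein of macrophages. Among midbrain dopamine markers KCNJ6 (-0.44) also reached that level. CD68 read 181 to 268 without and 234 to 302 with progesterone, and SOX9 read 272 to 354 without and 139 to 296 with it.

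**Figure D3:**
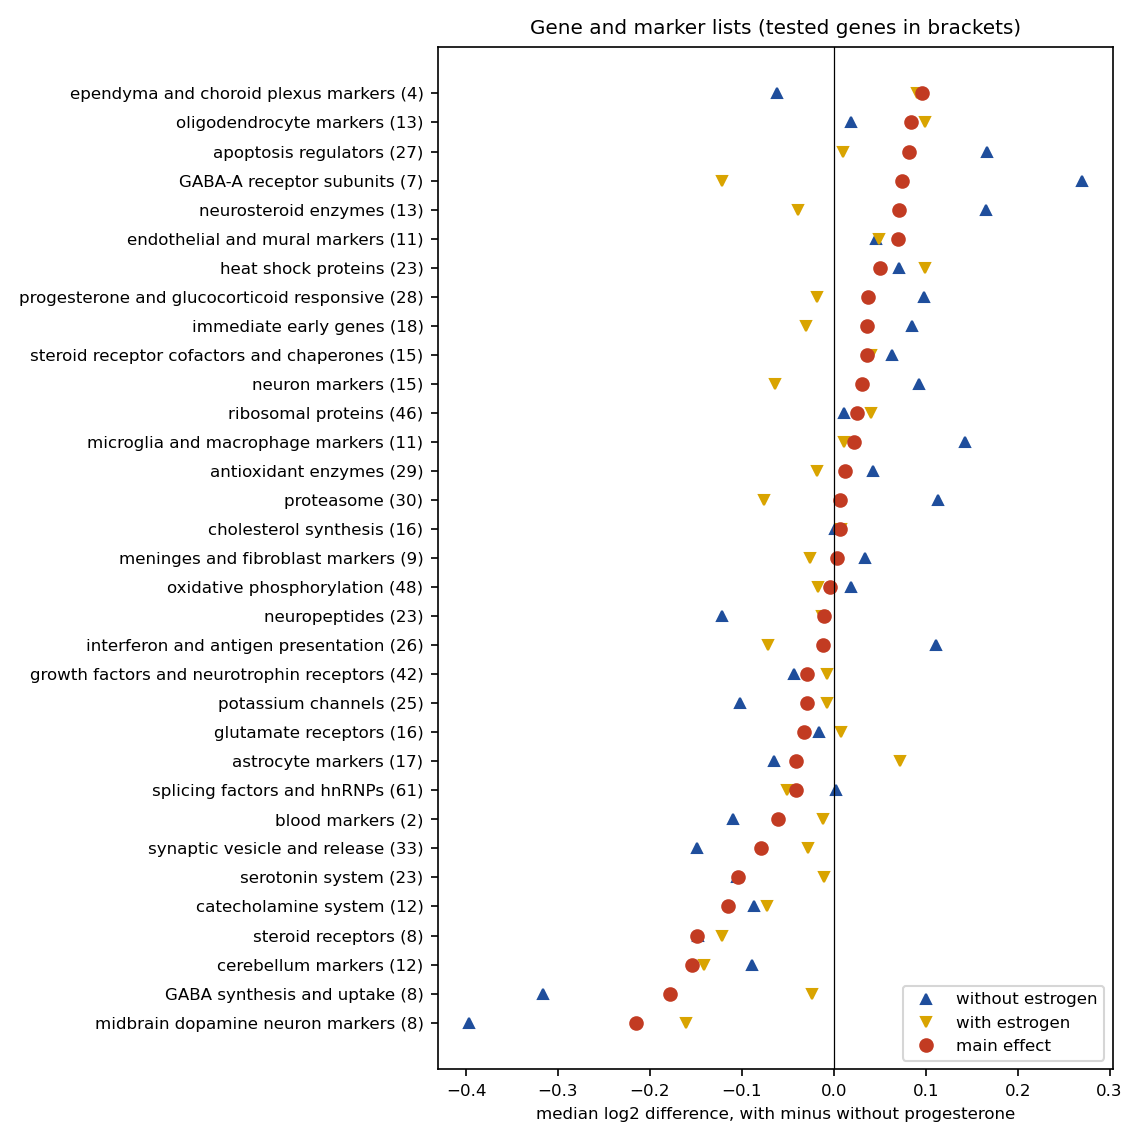
Median log2 difference with minus without progesterone (horizontal axis) of each of 33 gene and marker lists, for the main effect (red circles) and within each estrogen state (triangles), with the number of tested genes in brackets. The main-effect medians span -0.21 to 0.10, 17 positive and 16 negative, and the GABA-A subunits lie at 0.27 without and -0.12 with estrogen.

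**Figure D4:**
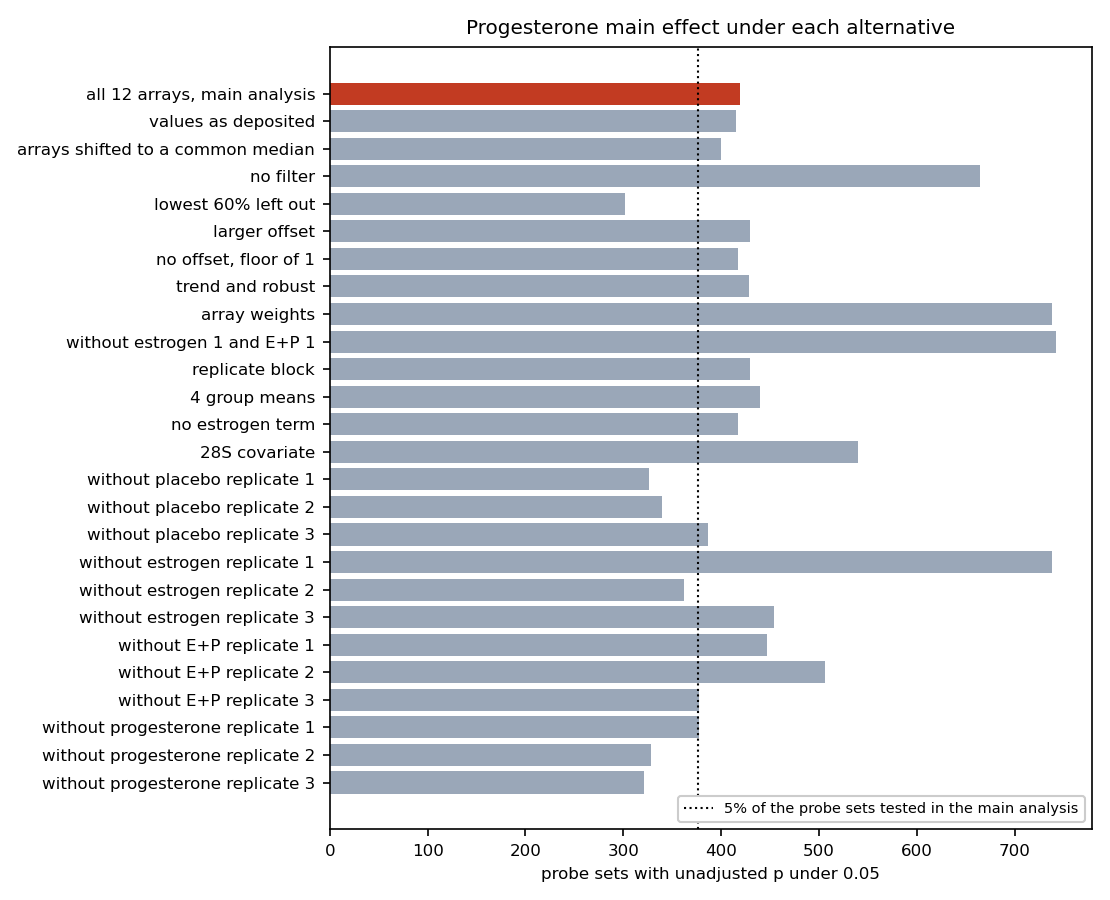
Number of probe sets with an unadjusted p under 0.05 for the progesterone main effect (horizontal axis, from 0) in the main analysis (red) and under 25 alternatives (grey), with a dotted line at 5% of the probe sets tested in the main analysis. The counts run from 302 with the lowest 60% left out to 742 when both arrays of high ribosomal signal were dropped, and no alternative gave a probe set past the adjusted threshold.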

How the data were processed

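Per the labels' protocols, dorsal raphe RNA was purified by Trizol and then on Qiagen columns, and labelled with biotin. The deposited values are intensity on a linear scale for 12625 probe sets, scaled by the authors to a common mean (found from the values, with 2% trimmed at each end). The summarisation method is not given in the sources used here. After 67 control probe sets were set aside, 10943 probe sets had 1 gene symbol in the platform table, 545 several and 1070 none. Intensities were converted to log2(intensity + 8.26) (the offset is the pooled 10th percentile) and quantile normalized, and the lowest 40% by mean were left out (5023, leaving 7535). limma 3.58.1 (R 4.3.3) fitted estrogen and progesterone as additive factors over 12 arrays (9 residual degrees of freedom). Differences within estrogen states and their difference came from 4 group means. Tests were 2-sided, with Benjamini-Hochberg adjustment at 0.05, and the fit was tested on simulated data. Leading genes were the 12 of smallest unadjusted p under 0.01 per direction with 1 symbol and the same sign in both states, since none passed. Up to 3 genes per direction were named for the other contrasts and up to 4 per list. Genes outside this rule (separated probe sets, genes with several probe sets, reference genes such as SLC6A4, and list members given for their role) were chosen after their values were seen. The members and lists were chosen with earlier results of these data known. The number of arrays limits the precision, and no batch labels were used here.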

Additional observations from a re-analysis of the deposited data

Results flagged for a closer look

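Among the leading genes, 48 groups of 6 arrays were examined for a sample far from the others, and 3 had one, where chance gives about 1 in 20. PTK6 read 27.5 on estrogen 3, below the other 5 arrays without progesterone. IRF9 read 90.6 on placebo 1, above the other 5 without progesterone. ICA1 read 60.7 on progesterone 1, above the other 5 with progesterone.

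The ribosomal RNA controls, of which 28S entered the gene fits only as a covariate in 1 alternative, were far above the placebo arrays on 2 arrays. The 28S control read 841 on estrogen 1 and 1354 on estrogen plus progesterone 1, and the 18S control 439 and 486.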

How the results depend on the processing

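The main effect had 0 calls under all 25 alternatives run. No value of a leading gene changed sign or passed the threshold where it could be fitted (574 values). No list median moved beyond the spread of its array medians, though some medians near 0 changed sign on the 10 arrays. That spread (SD 0.075 to 0.67) was larger than most of the medians, so only large moves could have been detected. The GABA-A subunit median went from 0.07 to 0.28 on the 10 arrays, within a spread of 0.35. The leading genes were picked on the same arrays for a small p and equal signs, so their kept signs are not independent support. Leaving out each array in turn gave 321 to 738 probe sets at an unadjusted p under 0.05 for the main effect. For progesterone without estrogen it gave 0 to 6 calls (438 to 769 at that level), with estrogen 0 to 2 (199 to 477) and for the difference between states 0 to 1 (298 to 517). In the same order, without a filter the counts at that level were 665, 950, 443 and 684, with 5 calls without estrogen and 1 for the difference. With array weights they were 738, 963, 541 and 654, with 6 and 2 calls (the 2 are KIFC1 and LPCAT4). With the lowest 60% left out, which tests fewer probe sets, there was 1 call without estrogen, with 120 at that level with estrogen and 214 for the difference. Values as deposited gave 1 call without estrogen. Without estrogen 1 and estrogen plus progesterone 1 the main effect had 742, and there were 11 calls without estrogen and 342 at that level with it. The cause of these moves was not tested. Same-numbered arrays correlated from -0.22 to -0.06 for placebo against progesterone and from 0.13 to 0.41 for estrogen against both hormones. Of 6 such pairs 3 were over 0.1, all 3 of them estrogen against both hormones, and 5 of 12 arrays correlated best with their own number. The highest, 0.41, was between estrogen 1 and estrogen plus progesterone 1, the 2 arrays of high ribosomal signal. Estrogen 3 correlated more with estrogen plus progesterone 2 (0.21) than with its own number (0.13). The part of the ribosomal signal in these correlations was not tested. Whether replicate numbers mark a pairing was not tested. The replicate block gave 430 for the main effect and 0 calls without estrogen in place of 3. PDYN and ICA1 had no value under settings that took them below the filter, among them the lowest 60% left out.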
